A study of Mus musculus with 27 samples.

Results

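Atoh1, Ptf1a, Barhl1, Barhl2, Zic1, Zic2, Zic4, Zic5, Lmx1a and Mab21l1 are regulatory genes of the dorsal hindbrain and of the cerebellum that grows out of it, and their expression was followed in the fetal mouse brain. They were chosen by name, and each of the 10 symbols matched 1 of the 55416 genes in the read-count table. RNA was sequenced from whole brains, dissected from fetuses that the labels give as female, in 3 strains on gestational days 12, 15 and 17 (d12, d15 and d17), with the day of the vaginal plug taken as day 1. The strains were the inbred C57BL/6J, the inbred AKR/J, and the congenic B6.Cg-Cav1tm1Mls/J (Cav1-null), which carries a targeted mutation of Cav1, the gene of the membrane protein caveolin. Strain and day made 9 groups, each with 3 libraries of poly-A RNA, and no group was treated. The labels name no litter or dam, so that p-values measure only the spread between these libraries, which the study's methods call biological replicates.

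In the embryonic hindbrain, the roof plate expresses Lmx1a and secretes signals of the Bmp and Wnt families. Beside it lies the rhombic lip, where cells with Atoh1 become granule neurons and other excitatory neurons, while the ventricular zone with Ptf1a gives Purkinje cells and other inhibitory neurons. The Barhl and Zic genes encode transcription factors of progenitors and young neurons in these lineages. Several of the genes are also used elsewhere in the brain, Lmx1a in the ventral midbrain, Barhl2 in the diencephalon and Zic genes in the dorsal forebrain and the meninges.

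Across the 2 developmental phases the 10 genes fell or were not called, and none rose, while 5.58% to 14.0% of all tested genes were called lower and 7.08% to 14.8% higher. Barhl2 was the 1 gene that was differentially expressed (DE) in all 6 comparisons of successive days, with a drop in each. Lmx1a fell in 4 and Zic5 in 3 of these comparisons, Zic1 in 2, and Barhl1 and Zic2 in 1 each. Zic4, Mab21l1 and Atoh1 were DE between no successive days, and Ptf1a had too few reads to be tested. Between strains, the calls were all on d15, when 7 of the genes were lower in Cav1-null than in C57BL/6J brains, with 31.8% of all tested genes called lower, and 3 were lower in AKR/J than in C57BL/6J brains, with 22.3% called lower. A gene is called DE here at an adjusted p under 0.05 in the quasi-likelihood test of edgeR, adjusted by Benjamini-Hochberg over all genes tested, and every adjusted p given is from this test unless another is named.

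Levels are given as CPM, a gene's reads scaled to the size of its library after correction by the TMM method. The libraries held 26363697 to 39759702 reads on genes. Cav1 itself was at 0 to 0.509 CPM in the Cav1-null libraries, while both other strains expressed it, at 9.25 to 34.2 CPM (AKR/J) and 10.3 to 39.9 CPM (C57BL/6J). The summed level of 10 forebrain markers differed within the d12 groups and was lowest in replicate 3 of every strain, with 508, 438 and 116 CPM in the AKR/J replicates 1 to 3, 1280, 1030 and 378 CPM in C57BL/6J, and 936, 817 and 206 CPM in Cav1-null. The sum in the AKR/J d12 replicate 3 was the lowest of all 27 libraries, so that this library stood apart from the others labelled as whole brain. Summed erythroid markers reached 33000 to 198000 CPM in d12 libraries of AKR/J, and no other library exceeded 18600 CPM. The strain AKR/J and the content of blood cannot be told apart on d12. Connective tissue markers summed to 5180 CPM in the C57BL/6J d15 replicate 1, against 361 and 597 CPM in the other libraries of that group. Markers of the placenta and decidua summed to 36.1 to 778 CPM in AKR/J d12 and those of the yolk sac endoderm to 43.1 to 1820 CPM, both highest in replicate 1. The summed Hox genes of the caudal hindbrain and cord reached 224 CPM in the AKR/J d15 replicate 3, against 12.6 and 37.9 CPM in the others of that group, and 251 CPM in the C57BL/6J d15 replicate 3, against 0.783 and 0.501 CPM. The part of these tissues in the results was not tested. In RNA of whole brains, fewer cells of a type and less RNA per cell cannot be told apart.

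The mean level over the 27 libraries, divided by the length of the merged exons, put Zic1 first at 42.7 CPM per kb. Zic2 followed at 14.0, Mab21l1 at 12.0, Zic4 at 9.28, Barhl2 at 8.04, Zic5 at 7.61, Barhl1 at 7.36 and Lmx1a at 3.66 CPM per kb. The bHLH genes that choose between the excitatory and the inhibitory lineage stood far below, Atoh1 at 0.599 and Ptf1a at 0.0801 CPM per kb. The ranges of Zic2, Mab21l1, Zic4, Barhl2, Zic5 and Barhl1 over the libraries overlapped their neighbours, and the length of Zic4 counts exons of 23 transcripts.

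**Figure D1:**
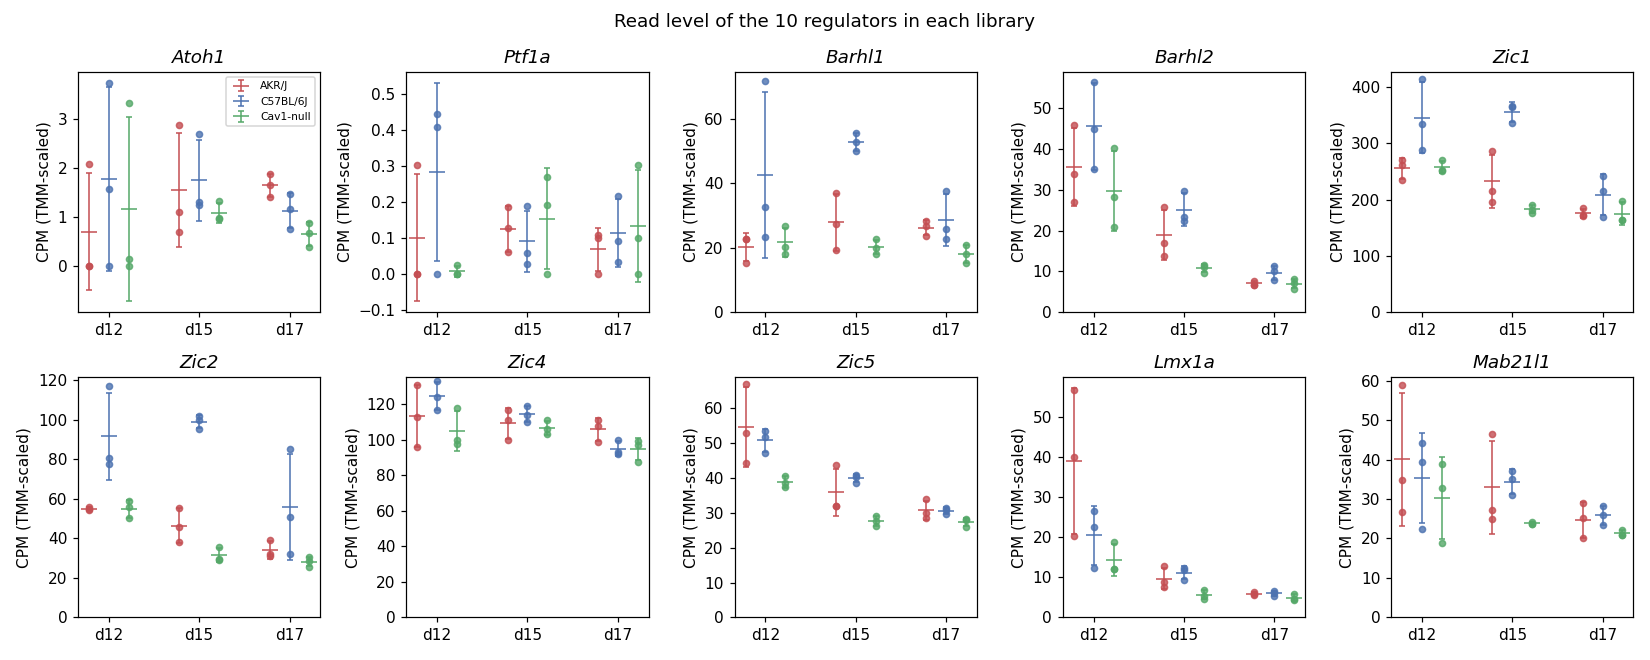
Level of each of the 10 genes in TMM-scaled CPM by gestational day, with the 3 strains in colour; points are libraries, and the dash and bar are the mean and SD of 3 libraries. Barhl2 and Lmx1a step down from d12 to d17, Zic4 stays between 87.6 and 133 CPM, and Ptf1a never exceeds 0.444 CPM.

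Atoh1 (ENSMUSG00000073043) and Ptf1a (ENSMUSG00000026735) encode the bHLH factors that open the excitatory and the inhibitory programme. Atoh1 is a gene of 1 exon on the plus strand of chr6:64706109-64708229, and Ptf1a lies on the plus strand of chr2:19450474-19452312, with its antisense gene Ptf1aos over it (GRCm39, GENCODE M39). Barhl1 (ENSMUSG00000026805, minus strand of chr2:28797691-28806680) encodes a homeodomain factor of granule neuron precursors that is a known target of Atoh1. The 250 bases upstream of the annotated starts of these 3 genes, from RefSeq on GRCm39, are shown because bHLH factors bind E boxes. Capitals mark the E box CAGCTG in Barhl1 and the reverse complement of a CCAAT box, ATTGG, in Atoh1 and Ptf1a, each on the strand printed from 5′ to 3′. The windows are chr6:64705859-64706108 of the plus strand for Atoh1, chr2:19450224-19450473 of the plus strand for Ptf1a and chr2:28806681-28806930 of the minus strand for Barhl1.
Atoh1: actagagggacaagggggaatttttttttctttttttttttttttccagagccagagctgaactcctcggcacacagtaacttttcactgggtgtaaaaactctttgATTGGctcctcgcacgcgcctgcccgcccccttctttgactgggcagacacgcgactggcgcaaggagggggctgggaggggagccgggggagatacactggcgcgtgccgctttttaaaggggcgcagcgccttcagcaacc
Ptf1a: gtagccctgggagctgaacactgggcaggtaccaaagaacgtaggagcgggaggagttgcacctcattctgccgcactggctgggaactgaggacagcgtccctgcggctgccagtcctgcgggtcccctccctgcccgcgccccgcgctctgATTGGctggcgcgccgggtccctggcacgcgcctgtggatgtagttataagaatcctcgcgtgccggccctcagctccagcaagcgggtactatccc
Barhl1: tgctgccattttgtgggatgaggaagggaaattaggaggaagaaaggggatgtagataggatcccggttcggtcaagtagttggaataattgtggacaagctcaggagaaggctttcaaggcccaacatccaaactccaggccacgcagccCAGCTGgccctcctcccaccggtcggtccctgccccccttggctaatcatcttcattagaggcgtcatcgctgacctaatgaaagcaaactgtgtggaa

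Of the 10 genes, 8 had such a window and Barhl1 had 2, and these 9 windows were searched on both strands. CAGCTG was found in 2 of them, both of Barhl1, against 13.0% of 32851 windows of the same length. CCAAT was found in 3, those of Atoh1, Ptf1a and Zic1, against 33.8% of all windows. The E box CAGATG, the Zic motif CAGCAGG and the homeodomain motif TAATTA were in none of the 9, against 14.4%, 8.44% and 4.84% of all windows. The window of Barhl1 printed above lies outside annotated exons, as do those of Atoh1 and Ptf1a.

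Atoh1 was nearly absent from some d12 libraries and well counted in others. On d12 the reads of Atoh1 were 0, 0 and 41 in the AKR/J replicates 1 to 3, 0, 50 and 118 in C57BL/6J, and 4, 0 and 126 in Cav1-null. The highest level of each strain on d12 was thus in replicate 3, at 2.08, 3.75 and 3.33 CPM, the libraries with the lowest forebrain sums. The summed level of 11 markers of the midbrain-hindbrain boundary was also highest in these 3 libraries, with 200, 335 and 779 CPM in the AKR/J replicates, 177, 535 and 696 CPM in C57BL/6J, and 206, 203 and 334 CPM in Cav1-null. En2, a homeobox gene of the boundary and the cerebellum, was at 74.8, 106 and 42.2 CPM in the same libraries, and in the 4 libraries where Atoh1 had 0 reads it was at 0.783 and 20.7 CPM (AKR/J replicates 1 and 2), 3.25 CPM (C57BL/6J replicate 1) and 9.76 CPM (Cav1-null replicate 2). The 20.7 CPM lay within the range of the d17 libraries of AKR/J, at 17.6 to 21.6 CPM, which held 42 to 58 reads of Atoh1. Cnpy1 of the same marker list, at 66.9 CPM in AKR/J d12 replicate 2, also lay within its d17 range of 55 to 78 CPM. En1 at 2.76 CPM and Pax5 at 3.95 CPM lay below theirs, 6.36 to 8.56 and 5.78 to 8.28 CPM. The part of dissection in these levels was not tested. In the 4 libraries at 0, a count of 3 reads would be 0.0918 to 0.124 CPM. Atoh1 was not detectable above that level there, for counting error of independent reads only. Nearly all Atoh1 counts above 0 were even, as given below, so that the limit may be higher.

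**Figure D2:**
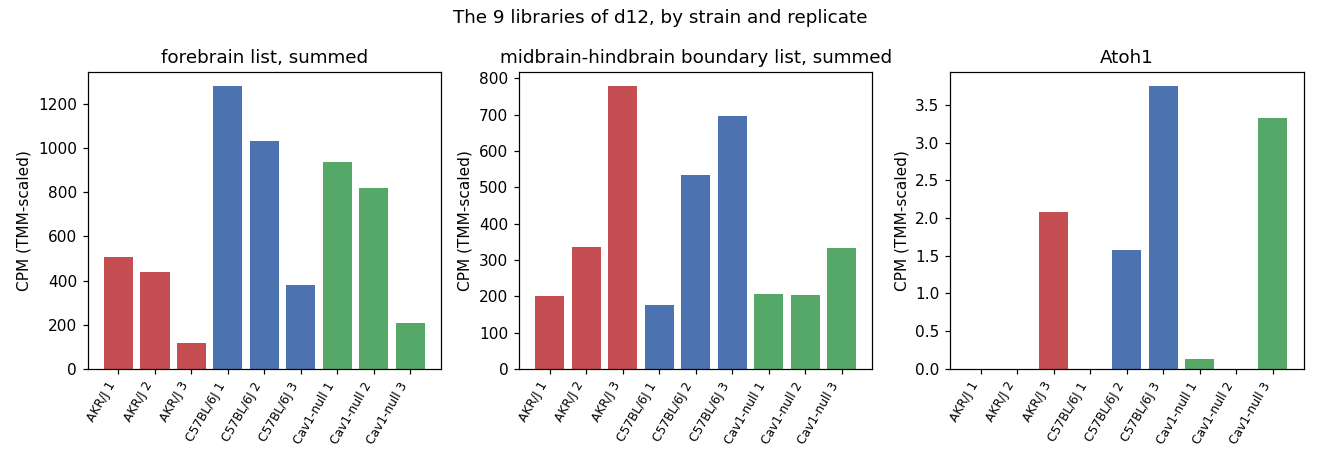
The 9 d12 libraries by strain and replicate, with bars from 0 for the summed forebrain markers, the summed midbrain-hindbrain boundary markers and Atoh1, all in TMM-scaled CPM. Replicate 3 of each strain has the lowest forebrain sum (116, 378 and 206 CPM) and the highest Atoh1 level (2.08, 3.75 and 3.33 CPM).

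On d15 the reads of Atoh1 were 22, 36 and 90 in AKR/J, 46, 44 and 92 in C57BL/6J, and 38, 30 and 28 in Cav1-null. The highest values, 90 and 92, were in replicate 3 of AKR/J and of C57BL/6J, the libraries with the high Hox sums. On d17 they were 58, 46 and 42 in AKR/J, 44, 38 and 24 in C57BL/6J, and 26, 20 and 12 in Cav1-null. No comparison called the gene. The early-phase log2 fold change was 1.17 ± 1.43 (SE) in AKR/J, -0.15 ± 1.17 in Cav1-null and -0.08 ± 1.08 in C57BL/6J, and each error exceeds its change. The result hung on single libraries: without the AKR/J d12 replicate 3 the adjusted p in AKR/J was 0.018, against a group then at 0 reads, and without the Cav1-null d12 replicate 3 the log2 fold change in Cav1-null became 3.97 with an adjusted p of 0.000784. In Cav1-null the 3 libraries of d17 lay below the 3 of d15, with a log2 fold change of -0.74 ± 0.40 and an adjusted p of 0.195. Of the 23 Atoh1 values above 0, 22 (95.7%) were even numbers of reads, against 58.3% of all values of 1 to 49 reads and 50.3% of values from 500 to under 5000 reads. How the reads were counted is not given in the sources used here.

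Ptf1a stayed at the edge of detection. On d12 it had 0, 0 and 6 reads in AKR/J, 0, 13 and 14 in C57BL/6J, and 0, 0 and 1 in Cav1-null. On d15 the reads were 6, 2 and 4 in AKR/J, 7, 2 and 1 in C57BL/6J, and 0, 6 and 8 in Cav1-null, and on d17 they were 0, 3 and 3 in AKR/J, 1, 3 and 7 in C57BL/6J, and 3, 9 and 0 in Cav1-null. Groups overlapped between successive days of a strain and between each strain and C57BL/6J on the same day. At most 14 reads, or 0.444 CPM, were counted in a library, the gene passed the filter on low counts in none of the comparisons, and no fold change is given.

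Barhl1 had its highest group mean in C57BL/6J on d15. On d12 it was at 15.2, 22.8 and 22.8 CPM in AKR/J, 23.4, 71.8 and 32.7 CPM in C57BL/6J, and 18.2, 26.7 and 20.2 CPM in Cav1-null. On d15 it was at 27.5, 19.2 and 37 CPM in AKR/J, 50, 53 and 55.7 CPM in C57BL/6J, and 19.9, 22.6 and 18.2 CPM in Cav1-null. The d12 libraries of C57BL/6J overlapped those of Cav1-null, and its 3 libraries of d15 lay above all 6 d15 libraries of the other strains. By d17 the level in C57BL/6J was 37.7, 22.6 and 25.7 CPM, which overlapped the 26.9, 23.7 and 28.2 CPM of AKR/J, while Cav1-null was at 15.4, 18 and 20.9 CPM.

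The drop of Barhl1 in the late phase of C57BL/6J was called, with a log2 fold change of -0.82 ± 0.20 (SE) and an adjusted p of 0.0391. It was lost without the C57BL/6J d15 replicate 1, 2 or 3 (adjusted p = 0.113, 0.122 and 0.125) or the d17 replicate 3 (0.16). On d15 Barhl1 was lower in Cav1-null than in C57BL/6J by a log2 fold change of -1.35 ± 0.09 (adjusted p = 5.43e-07), and this call held with any 1 library left out. The difference of AKR/J from C57BL/6J on d15, -0.86 ± 0.19 on the log2 scale (adjusted p = 0.0102), was lost without the AKR/J d15 replicate 1 (0.0554). In the early phase of C57BL/6J the log2 fold change was 0.28 ± 0.35 (adjusted p = 0.599), but without the d12 replicate 2, which had the 71.8 CPM, it was 0.84 with an adjusted p of 0.0161. Barhl1 overlaps the gene Ddx31 of the other strand.

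Barhl2 (ENSMUSG00000034384, minus strand of chr5:106600389-106606336) encodes the related homeodomain factor, known from commissural neurons of the cord and from the diencephalon. Its levels went down on each day in all strains. In AKR/J they were 27, 46 and 33.9 CPM on d12, 17, 13.8 and 25.7 CPM on d15, and 6.77, 6.72 and 7.75 CPM on d17. In C57BL/6J they were 35.2, 56.4 and 45 CPM, then 23.4, 29.8 and 22.3 CPM, then 11.2, 7.8 and 10.1 CPM. In Cav1-null they were 28.2, 40.3 and 20.9 CPM, then 11.6, 9.71 and 11 CPM, then 5.75, 8.03 and 7.06 CPM. Successive days overlapped in none of the strains, but with library sizes alone in place of TMM the d12 and d15 libraries of AKR/J overlapped.

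The early-phase log2 fold change of Barhl2 was -0.97 ± 0.28 (SE, adjusted p = 0.0351) in AKR/J, -1.46 ± 0.22 (0.00225) in Cav1-null and -0.90 ± 0.18 (0.0275) in C57BL/6J. The late change was -1.39 ± 0.22 (0.00399) in AKR/J, -0.63 ± 0.15 (0.00692) in Cav1-null and -1.31 ± 0.20 (0.01) in C57BL/6J. The late call in AKR/J and both calls in Cav1-null held with any 1 library left out, but the late one in Cav1-null had an adjusted p of 0.178 in a model of all 27 libraries. The early call in AKR/J was lost without the d12 replicate 2 (0.0545), the d12 replicate 3 (0.078), the d15 replicate 1 (0.128) or the d15 replicate 2 (0.104), and with library sizes alone it was -0.60 (0.299). The early call in C57BL/6J was lost without the d15 replicate 1, 2 or 3 (0.102, 0.0877 and 0.138), and its late call without the d15 replicate 2 (0.0574) or the d17 replicate 3 (0.0657). On d15 Barhl2 was lower in Cav1-null than in C57BL/6J, with a log2 fold change of -1.18 ± 0.13 (adjusted p = 2.7e-05, held with any 1 library left out), whereas AKR/J differed by -0.36 ± 0.22 (0.232, or 0.0226 without the AKR/J d15 replicate 3, the one with the high Hox sum).

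Zic1 (ENSMUSG00000032368) and Zic4 (ENSMUSG00000036972) encode zinc finger factors of granule cell precursors, and deletion of both disturbs the growth of the cerebellum. They are neighbours on chromosome 9, Zic1 on the minus strand of chr9:91240111-91247863 and Zic4 on the plus strand of chr9:91244149-91271402. The annotated genes overlap over chr9:91244149-91247863, and since the handling of strands in counting is not given in the sources used here, reads in that stretch cannot be assigned to either with certainty. Their levels nevertheless took different courses.

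Zic1 in C57BL/6J was at 335, 414 and 288 CPM on d12 and at 336, 364 and 367 CPM on d15, and then at 242, 169 and 216 CPM on d17. In Cav1-null it was at 251, 270 and 252 CPM on d12, at 190, 182 and 177 CPM on d15 and at 163, 198 and 163 CPM on d17. In AKR/J it was at 234, 262 and 270 CPM, then 216, 196 and 286 CPM, then 185, 173 and 170 CPM. The libraries of C57BL/6J and AKR/J thus separated from the earlier day on d17 and those of Cav1-null on d15, and on d17 all 3 strains overlapped.

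In the early phase Zic1 fell in Cav1-null, with a log2 fold change of -0.49 ± 0.08 (SE, adjusted p = 0.00286, held with any 1 library left out), and was at -0.00 ± 0.13 in C57BL/6J (adjusted p = 0.986). It fell late in C57BL/6J, by 0.70 ± 0.18 on the log2 scale (adjusted p = 0.0417), a call lost without the C57BL/6J d15 replicate 1, 2 or 3 (0.126, 0.142 and 0.137) or the d17 replicate 3 (0.141). The late change in AKR/J was -0.38 ± 0.13 (0.0634, or 0.0201 in the DESeq2 Wald test). On d15 Zic1 was lower than in C57BL/6J by a log2 fold change of -0.91 ± 0.06 in Cav1-null (adjusted p = 3.87e-07, held with any 1 library left out). The difference of AKR/J on d15 was -0.55 ± 0.12 (0.0105), and it was lost without the AKR/J d15 replicate 1 (0.0739) or the C57BL/6J d15 replicate 2 (0.0598). The C57BL/6J d15 replicate 1, with the high connective tissue sum, was at 336 CPM of Zic1, against 364 and 367 CPM in its group. The part of connective tissue in these levels was not tested.

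Zic4 had the narrowest range of the genes relative to its level. Its levels were 95.8 to 131 CPM, 99.8 to 117 CPM and 98.7 to 111 CPM on d12, d15 and d17 in AKR/J. They were 117 to 133 CPM, 110 to 119 CPM and 92.1 to 99.6 CPM in C57BL/6J, and 97.4 to 118 CPM, 103 to 111 CPM and 87.6 to 99.4 CPM in Cav1-null. The libraries of d17 lay below those of d15 in C57BL/6J and in Cav1-null without a call, in C57BL/6J not with library sizes alone. No comparison called Zic4, with log2 fold changes of -0.20 to 0.03 between days and -0.22 to 0.14 between strains. On d15 its difference between Cav1-null and C57BL/6J was -0.05 ± 0.05, and it turned to 0.16 (adjusted p = 0.03) when libraries were scaled by the upper quartile.

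The junction table gave reads that cross an intron, which carry the splice strand and thus tell Zic1 from Zic4. It held 17 distinct junctions of these genes, 12 under Zic4, 2 under Barhl1 and 1 each under Zic1, Zic2 and Zic5, and their levels, as junction reads in CPM, were not tested. The Zic1 intron of 1413 bases (chr9:91244676-91246088) was crossed by 16.1, 21.1 and 15.3 CPM in C57BL/6J on d12, by 16.1, 17.1 and 17.2 on d15, and by 9.8, 5.24 and 8.21 on d17. In Cav1-null it was crossed by 12.7, 13.3 and 10.6 CPM on d12, by 7.91, 6.26 and 8.61 on d15, and by 6.32, 8.34 and 6.93 on d17. The libraries of d15 thus kept the level of d12 in C57BL/6J and lay below d12 in Cav1-null, as for the gene-level reads of Zic1. In AKR/J the means were 9.13 ± 2.15 (SD, n = 3), 10.3 ± 2.69 and 7.97 ± 1.06 CPM. The junction of 692 bases at chr9:91243820-91244511, listed under a Zic4 transcript, is an annotated intron of Zic1, and it stood at 12.7, 13.3 and 7.29 CPM in C57BL/6J on the 3 days, with 1 Cav1-null d12 library listed at 0.

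Within Zic4, no difference between junctions was tested, and the introns of 2205 and 79 bases are described first. The intron of 2205 bases (chr9:91266383-91268587) had mean levels of 3.75 ± 0.739 (SD, n = 3), 3.62 ± 0.645 and 3.04 ± 0.55 CPM in C57BL/6J. In AKR/J the means were 2.77, 2.86 and 3.46, and in Cav1-null 2.8, 3.04 and 3.06 CPM, with overlapping days in each strain. The intron of 79 bases near the start of a set of Zic4 transcripts (chr9:91250948-91251026) was crossed by 0.694, 1.01 and 0.921 CPM on d12, 0.459, 0.442 and 0.472 on d15, and 0.199, 0.123 and 0.341 on d17 in C57BL/6J, with no overlap between days. In AKR/J its means were 0.615, 0.532 and 0.279 and in Cav1-null 0.491, 0.472 and 0.363 CPM, and successive days overlapped in both strains. These levels of the 79-base intron rest on 3 to 32 reads per library. The Zic4 intron of 3381 bases had means of 1.51, 1.12 and 0.988 CPM in C57BL/6J. In AKR/J its means were 0.876, 0.856 and 0.898, and in Cav1-null 0.932, 1.19 and 0.991 CPM. That of 3378 bases, with at most 11 reads in a library, had means of 0.137, 0.249 and 0.209 CPM in C57BL/6J. The Barhl1 intron of 3649 bases had means of 1.63, 2.44 and 1.29 CPM in C57BL/6J, 0.803, 0.649 and 0.579 in Cav1-null, and 0.565, 0.968 and 0.704 in AKR/J.

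**Figure D3:**
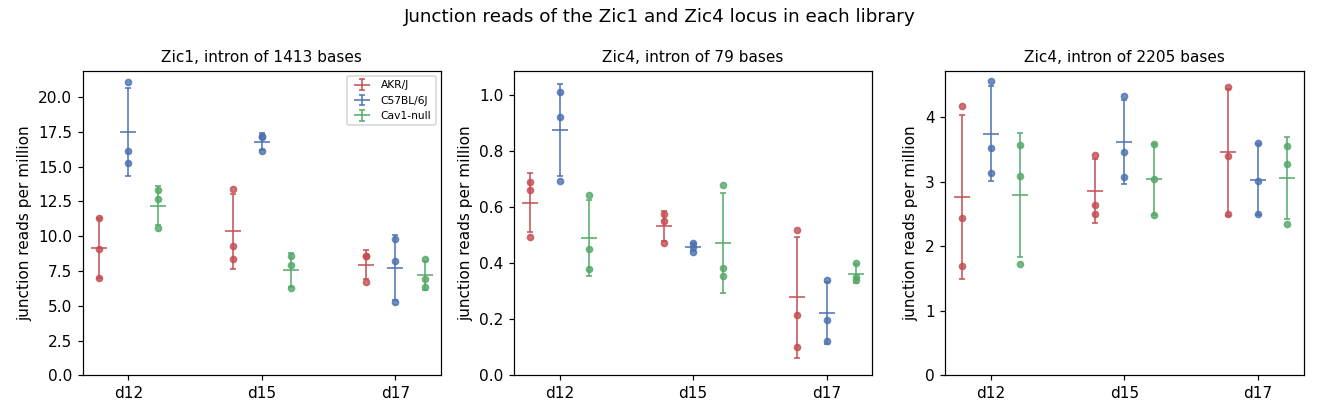
Reads, in CPM, that cross the Zic1 intron of 1413 bases and the Zic4 introns of 79 and 2205 bases, by gestational day and strain; points are libraries, and the dash and bar are the mean and SD of 3 libraries. The Zic1 intron in C57BL/6J is at 16.8 CPM on d15 and at 7.75 on d17, and the short Zic4 intron in C57BL/6J steps from 0.875 to 0.458 to 0.221.

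Zic2 (ENSMUSG00000061524) and Zic5 (ENSMUSG00000041703) form another such pair on chromosome 14, Zic2 on the plus strand of chr14:122711827-122717264 and Zic5 on the minus strand of chr14:122694190-122703089, with 8738 bases between their starts. Zic2 overlaps 2610035F20Rik and Zic5 overlaps Gm56762, each on the other strand. Zic2 is known for its role in forebrain midline formation and in the dorsal neural tube. Its level in C57BL/6J was 80.5, 117 and 77.5 CPM on d12, 100, 102 and 95.3 CPM on d15, and 85, 32 and 50.6 CPM on d17. In AKR/J it was 54.4, 55.8 and 54.8 CPM, then 45.5, 37.9 and 55.5 CPM, then 32.2, 31.1 and 39.1 CPM. In Cav1-null it was 59.1, 50.2 and 55.7 CPM, then 35.5, 29.1 and 29.8 CPM, then 28.5, 30.5 and 25.7 CPM. The C57BL/6J libraries lay above all those of the other strains on d12 and d15, and on d17 they lay above all those of Cav1-null and overlapped AKR/J. The forebrain sums of the C57BL/6J d17 replicates 1 to 3, 855, 316 and 493 CPM, had the same order as their Zic2 levels, and the part of the forebrain in them was not tested.

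Zic2 fell in the early phase of Cav1-null, with a log2 fold change of -0.80 ± 0.11 (SE, adjusted p = 0.0018, held with any 1 library left out). The late changes were -0.42 ± 0.14 (0.0701) in AKR/J and -0.76 ± 0.32 (0.147) in C57BL/6J, and the latter was -1.20 with an adjusted p of 0.00674 without the d17 replicate 1 and -0.47, not called, without the d17 replicate 2. On d15 Zic2 showed the largest differences between strains of the 9 genes tested, -1.61 ± 0.08 (adjusted p = 1.08e-07) for Cav1-null and -1.03 ± 0.11 (0.000538) for AKR/J against C57BL/6J, and both held with any 1 library left out. On d12 the differences were -0.70 ± 0.17 (0.105) for Cav1-null and -0.59 ± 0.19 (0.0513) for AKR/J. When replicate 3 of both strains, with its low forebrain sum, was left out, a choice made after seeing the data, that of Cav1-null was -0.79 (0.022) and that of AKR/J -0.70 (0.127). On d17 the differences were -0.98 ± 0.31 (0.575) for Cav1-null and -0.73 ± 0.32 (0.235) for AKR/J, and they hung on single libraries. Without the C57BL/6J d17 replicate 2 they were -1.28 (0.0243) and -0.99 (0.0111), and without its replicate 1 they were -0.55 and -0.29, neither called.

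Zic5, a relative of Zic2 in the development of the dorsal neural tube and neural crest, fell in the early phase of every strain. It was at 66.8, 44.2 and 52.8 CPM in AKR/J on d12 and at 31.9, 31.9 and 43.6 CPM on d15. In C57BL/6J it was at 47.1, 53.4 and 51.8 CPM and then at 40.8, 40.1 and 38.6 CPM, and in Cav1-null at 40.6, 37.4 and 38.5 CPM and then at 29.1, 27.6 and 26.1 CPM. On d17 its levels were 28.4 to 33.8 CPM in AKR/J, 29.5 to 31.3 CPM in C57BL/6J and 26 to 28.1 CPM in Cav1-null. The d12 and d15 libraries overlapped in no strain, but with library sizes alone those of AKR/J did.

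The early log2 fold change of Zic5 was -0.66 ± 0.21 (SE, adjusted p = 0.0456) in AKR/J, -0.49 ± 0.09 (0.00665) in Cav1-null and -0.40 ± 0.09 (0.036) in C57BL/6J. That of Cav1-null held with any 1 library left out. The call in AKR/J was kept only without the d12 replicate 2, with adjusted p-values of 0.0606 to 0.183 without each of the others, and that in C57BL/6J was lost without the d12 replicate 1 (0.071) or the d15 replicate 1, 2 or 3 (0.12, 0.148 and 0.176). With library sizes alone the change in AKR/J was -0.17 (0.593), and with no low-count filter it was -0.59 (0.0675) in AKR/J and -0.38 (0.0725) in C57BL/6J. The late changes were -0.21 (0.314) in AKR/J, -0.01 (0.962) in Cav1-null and -0.32 (0.0851) in C57BL/6J. On d15 Zic5 was lower in Cav1-null than in C57BL/6J by a log2 fold change of -0.49 ± 0.07 (adjusted p = 0.00026, held with any 1 library left out), and AKR/J differed by -0.09 ± 0.12 (0.576), or by -0.27 (0.0317) without the AKR/J d15 replicate 3.

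Lmx1a (ENSMUSG00000026686, plus strand of chr1:167516677-167676310) encodes the LIM homeodomain factor that sets up the roof plate. On d12 it was at 40, 20.2 and 56.7 CPM in AKR/J, 12.3, 22.6 and 26.5 CPM in C57BL/6J, and 12, 12.1 and 18.8 CPM in Cav1-null. On d15 it was at 7.57, 8.74 and 12.7 CPM in AKR/J, 12.2, 11.9 and 9.31 CPM in C57BL/6J, and 4.71, 6.94 and 5.39 CPM in Cav1-null. The d12 libraries lay above those of d15 in every strain, by little in C57BL/6J, and the highest value of all was in the AKR/J d12 replicate 3, the library with the lowest forebrain sum. By d17 the levels were 5.51 to 6.25 CPM in AKR/J, 5.3 to 6.52 CPM in C57BL/6J and 4.36 to 5.86 CPM in Cav1-null.

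The early log2 fold change of Lmx1a was -2.05 ± 0.37 (SE, adjusted p = 0.00633) in AKR/J and -1.34 ± 0.24 (0.0053) in Cav1-null, and both held with any 1 library left out. In C57BL/6J it was -0.93 ± 0.28 (0.0631, 0.0136 in the DESeq2 Wald test, 0.0482 without the d12 replicate 1). The late change was -0.70 ± 0.21 (0.0472) in AKR/J, -0.20 ± 0.19 (0.495) in Cav1-null and -0.83 ± 0.19 (0.0309) in C57BL/6J. The late call in AKR/J was lost without the d15 replicate 3 (0.125) or any d17 library (0.108, 0.133 and 0.137) and in a model of all 27 libraries (0.146), and that in C57BL/6J without any d15 library (0.118, 0.12 and 0.0595) or the d17 replicate 3 (0.119). On d15 Lmx1a was lower in Cav1-null than in C57BL/6J by a log2 fold change of -0.93 ± 0.18 (adjusted p = 0.00127, held with any 1 library left out). On d12 the difference of AKR/J from C57BL/6J was 1.07 ± 0.40 (0.0731, 0.0253 in the DESeq2 Wald test, 0.019 without the AKR/J d12 replicate 2).

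Mab21l1 (ENSMUSG00000056947), a gene of 1 exon on the plus strand of chr3:55689931-55692422 inside the gene Nbea of the other strand, encodes a protein of eye and neural development. It was at 26.6, 34.7 and 58.9 CPM in AKR/J on d12, 22.4, 44.3 and 39.3 CPM in C57BL/6J, and 18.9, 32.9 and 39 CPM in Cav1-null. On d15 it was at 27.3, 24.9 and 46.6 CPM in AKR/J, 31.1, 35 and 37.2 CPM in C57BL/6J, and 23.6, 24.1 and 23.7 CPM in Cav1-null. On d12 the lowest value of each strain was in replicate 1. On d17 it was at 20 to 29.1 CPM in AKR/J, 23.4 to 28.3 CPM in C57BL/6J and 20.9 to 22.2 CPM in Cav1-null. No change between successive days was called, with log2 fold changes of -0.39 to -0.08, but the early change in Cav1-null was -0.60 (adjusted p = 0.018) without the d12 replicate 1, and the late change in C57BL/6J was -0.42 (0.0435) without the d17 replicate 1. On d15 the level in Cav1-null was lower than in C57BL/6J by a log2 fold change of -0.49 ± 0.08 (SE, adjusted p = 0.000479, held with any 1 library left out, but 0.145 in a model of all 27 libraries), and AKR/J differed by -0.00 ± 0.21 (0.995), or by -0.35 (0.042) without the AKR/J d15 replicate 3, which had the 46.6 CPM. Eye markers summed to 13.8, 186 and 17 CPM in the AKR/J d15 replicates 1 to 3, and the part of eye tissue in the Mab21l1 levels was not tested.

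Between successive days, 9 of the 10 genes were tested in each strain. From d12 to d15, 3 fell in AKR/J (Barhl2, Zic5 and Lmx1a), where 14.0% of all tested genes were called lower, 2 in C57BL/6J (Barhl2 and Zic5), where 7.80% were, and 5 in Cav1-null (Barhl2, Zic1, Zic2, Zic5 and Lmx1a), where 11.8% were. From d15 to d17, 2 fell in AKR/J (Barhl2 and Lmx1a), with 10.4% of all genes called lower, 4 in C57BL/6J (Barhl1, Barhl2, Zic1 and Lmx1a), with 5.58%, and 1 in Cav1-null (Barhl2), with 12.8%. Of all genes, 14.8% and 11.6% were called higher in AKR/J in the early and the late phase, 7.08% and 7.46% in C57BL/6J and 11.6% and 14.5% in Cav1-null, and none of the 10 genes was among them. The median log2 fold change of the 9 genes was -0.29 in AKR/J, -0.49 in Cav1-null and -0.08 in C57BL/6J in the early phase, and -0.38, -0.16 and -0.70 in the late phase, while that of all tested genes was between -0.04 and 0.03. In the late phase of C57BL/6J, 8 of the 10 genes lay lower on d17 with no overlap between the libraries, as did 25% of all genes. In the other 5 comparisons of days 3 to 5 did, against 19.7% to 21.1% of all genes.

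The summed level of 10 markers of progenitors and cycling cells went the same way as the genes that fell. It was 2600 to 2840 CPM on d12, 1410 to 1660 CPM on d15 and 558 to 773 CPM on d17 in AKR/J, 2400 to 3390, 1680 to 1930 and 472 to 835 CPM in C57BL/6J, and 1600 to 2660, 900 to 919 and 490 to 502 CPM in Cav1-null. Forebrain markers in C57BL/6J summed to 1220 to 1460 CPM on d15 and 316 to 855 CPM on d17. The part of these cells in the changes of the 10 genes was not tested.

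**Figure D4:**
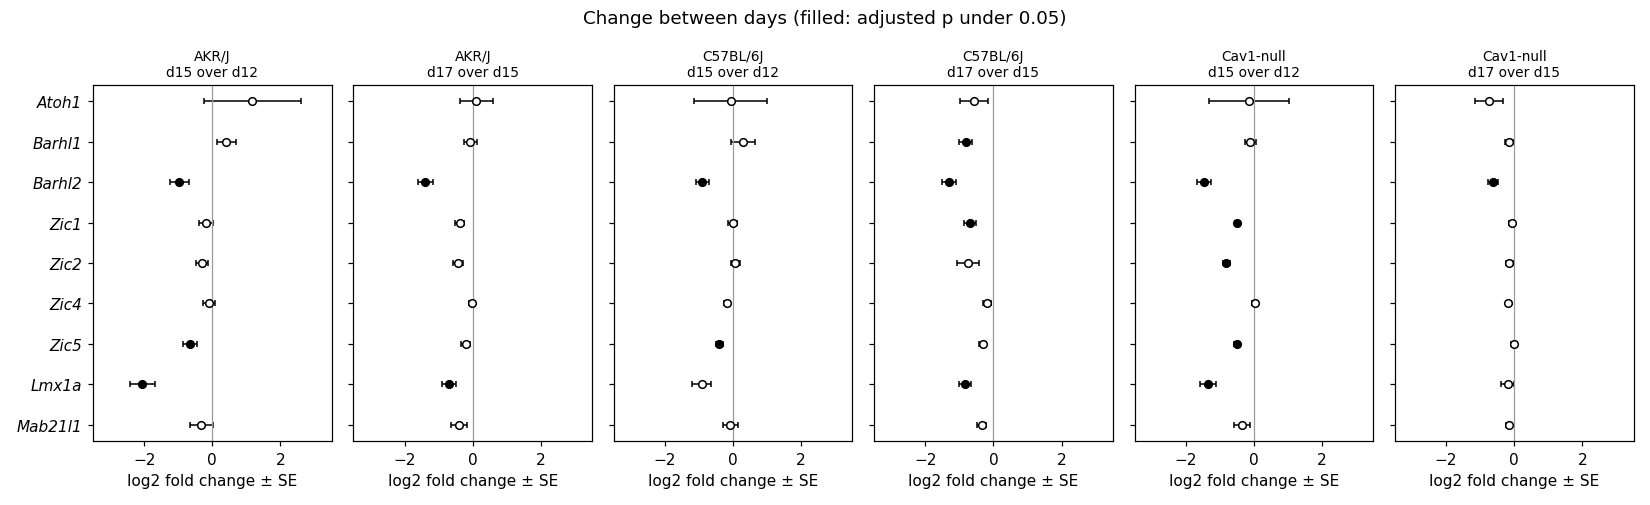
Log2 fold change of the later over the earlier day for 9 genes in 6 comparisons, 1 panel for each strain and phase; bars are the standard error and filled points are called DE. All filled points lie below 0, from Lmx1a at -2.05 in the early phase of AKR/J to Zic5 at -0.40 in the early phase of C57BL/6J.

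Against C57BL/6J on d15, 7 of the 9 tested genes were lower in Cav1-null (Barhl1, Barhl2, Zic1, Zic2, Zic5, Lmx1a and Mab21l1), where 31.8% of all tested genes were called lower and 26.8% higher. The same 7 genes showed no overlap between the libraries of these strains, as did 35.8% of all genes in the lower direction. In AKR/J 3 genes were lower on d15 (Barhl1, Zic1 and Zic2), where 22.3% of all genes were called lower and 18.8% higher. The median log2 difference of all 9 tested genes was -0.91 for Cav1-null, with 0.03 over all genes, and -0.14 for AKR/J, with 0.06 over all genes. Forebrain markers on d15 summed to 1220 to 1460 CPM in C57BL/6J, 624 to 652 CPM in Cav1-null and 505 to 725 CPM in AKR/J, and roof plate markers to 101 to 145, 45.6 to 48.7 and 68.1 to 105 CPM. In the same order, markers of progenitors and cycling cells summed to 1680 to 1930, 900 to 919 and 1410 to 1660 CPM and those of maturing neurons to 4870 to 5570, 3760 to 3830 and 2660 to 4030 CPM. Erythroid markers went the other way, with 819 to 1060 CPM in C57BL/6J, 2910 to 3610 CPM in Cav1-null and 2010 to 3060 CPM in AKR/J. Their part in the differences was not tested.

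On d12 and d17 no gene of the set was called between strains. On d12, AKR/J against C57BL/6J had 3 of the 9 genes at an unadjusted p under 0.05, as did 42.6% of all genes, and 1 called by DESeq2, which called 35.2% of all, with 14.1% of all genes called lower and 14.5% higher by edgeR. Cav1-null against C57BL/6J had 0 of 19475 genes called on d12 (0%), with 4309 at an unadjusted p under 0.05, 4 of them among the 9 genes, and 2044 genes called by DESeq2, 1 of them among the 9. On d17, 0.361% of all genes were called lower and 0.381% higher in AKR/J, and 0.0442% lower and 0.00491% higher in Cav1-null. Here 2 of the 9 genes had an unadjusted p under 0.05 in each strain, against 21.2% of all genes in AKR/J and 7.55% in Cav1-null, and DESeq2 called 0, against 6.58% and 0.236% of all. Without the C57BL/6J d17 replicate 2, Barhl2 (-0.58), Zic1 (-0.38) and Zic2 were called lower in AKR/J and Barhl1 (-0.82) and Zic2 in Cav1-null, with 26.4% and 13.6% of all genes called.

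**Figure D5:**
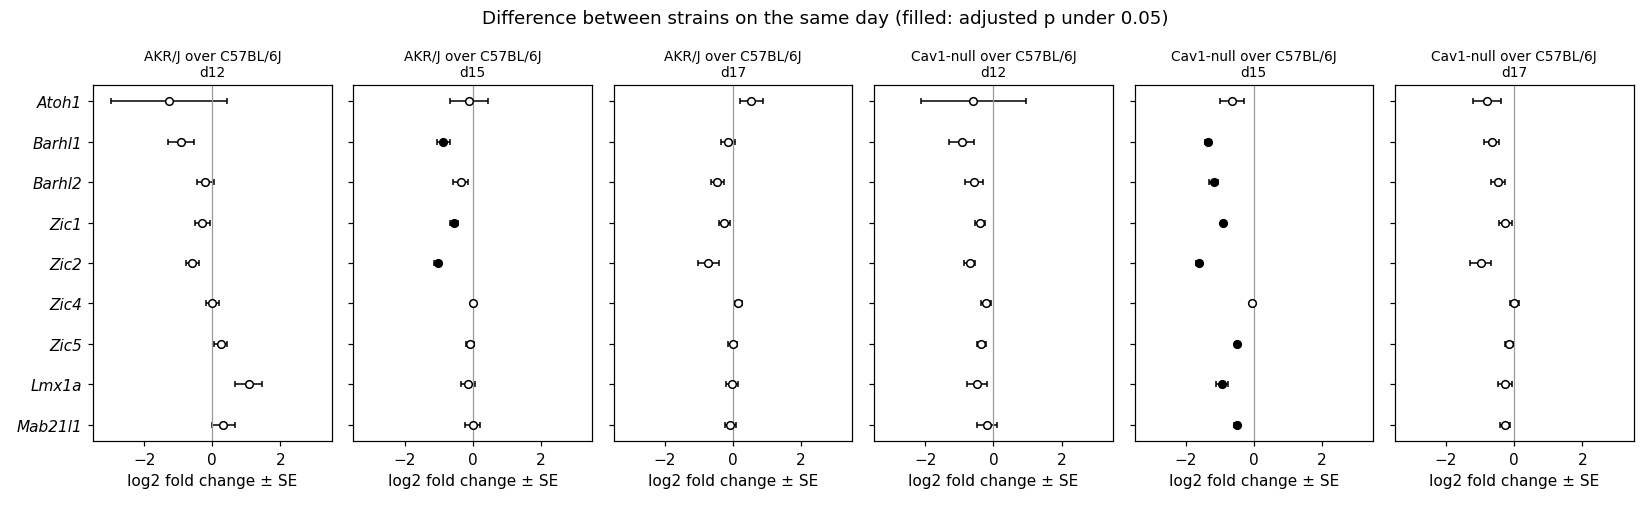
Log2 fold change of AKR/J and of Cav1-null against C57BL/6J for 9 genes on d12, d15 and d17, 1 panel for each strain and day; bars are the standard error and filled points are called DE. Filled points are on d15 alone, 7 for Cav1-null from -1.61 to -0.49 and 3 for AKR/J from -1.03 to -0.55.

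The interaction of strain and day over 12 libraries asked whether strains differed in a gene's change, and edgeR called none of the 9 genes. The shares of all genes called in either direction were small, 0.0711% and 0.00468% for AKR/J and 0.00472% and 0.252% for Cav1-null against C57BL/6J in the early and the late phase. At an unadjusted p under 0.05 there were 1 and 1 of the 9 genes for AKR/J and 2 and 5 for Cav1-null, and DESeq2 called 0 and 0 for AKR/J and 1 and 1 for Cav1-null. Of all genes, 16.3% and 7.57% for AKR/J and 15% and 21.9% for Cav1-null were under that p, and DESeq2 called 4.83% and 0.211%, and 2.44% and 6.7%. The early change of Zic2 in Cav1-null differed from that in C57BL/6J by -0.90 ± 0.20 on the log2 scale (unadjusted p = 0.00054, adjusted p = 0.166, DESeq2 0.0071). Without the C57BL/6J d12 replicate 2, 3 genes were called, Zic2 at -1.09 (0.00455), Zic1 at -0.64 (0.0171) and Barhl1 at -0.98 (0.0376), with 7.3% of all genes called in that fit. For Zic1 the difference was -0.51 ± 0.16 (0.227) in the early and 0.60 ± 0.19 (0.119, DESeq2 0.0325) in the late phase. The early change of Lmx1a in AKR/J differed from that in C57BL/6J by -1.19 ± 0.50 (0.268, or 0.039 without the AKR/J d12 replicate 2, where 14.8% of all genes were called). Without the C57BL/6J d17 replicate 1, the late changes of 5 genes were called as different in Cav1-null, Barhl1 by 0.97, Barhl2 by 0.86, Zic1 by 0.81, Zic2 by 1.10 and Zic5 by 0.35, all less negative than in C57BL/6J. In that fit 26.1% of all genes were called, against 0% to 0.474% without any other library.

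Other genes of these lineages were read from 5 lists, and their counts stand against the shares of all genes called lower in the same comparisons, 14.0% in AKR/J, 11.8% in Cav1-null and 7.80% in C57BL/6J early, and 10.4%, 12.8% and 5.58% late. In the same order, 14.8%, 11.6% and 7.08% of all genes were called higher early, and 11.6%, 14.5% and 7.46% late. Of 20 genes of the rhombic lip and granule lineage, 9 fell in the early phase of Cav1-null and 5 in that of C57BL/6J, led in both by Olig3, a factor of rhombic lip progenitors, at -3.16 ± 0.26 (SE, adjusted p = 0.000195) and -2.53 ± 0.21 (0.00916) on the log2 scale. Early in AKR/J, 3 fell and 3 rose, with Evx1 at 1.97 ± 0.62 (0.0441), which is near the 14.0% and 14.8% of all genes called lower and higher. From d15 to d17, 9 fell in AKR/J, 12 in Cav1-null, where 1 rose, and 12 in C57BL/6J, with the proneural gene Neurog1 in the lead at -3.21, -2.61 and -4.15. On d15, 16 of the 20 were lower in Cav1-null, against 31.8% of all genes, and 6 in AKR/J, near the 22.3% of all genes, than in C57BL/6J. The median log2 fold change of this list was -0.22, -0.64 and -0.34 in the early phase of AKR/J, Cav1-null and C57BL/6J, and -1.14 for Cav1-null on d15.

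The list of the Ptf1a and inhibitory lineage was read in the early phase first. Of 23 genes tested, 9 rose and 0 fell in AKR/J, where 14.8% of all genes were called higher and 14.0% lower. Pax2 of inhibitory interneurons led there at 4.39 ± 0.95 (adjusted p = 0.0118). In C57BL/6J 1 rose and 2 fell, near the 7.08% and 7.80% of all genes. In Cav1-null 3 rose, near the 11.6% of all genes, and 6 fell, against 11.8%. The list's median was 0.97 on the log2 scale in AKR/J, -0.55 in Cav1-null and -0.08 in C57BL/6J. No gene of the list was called in the interaction for this phase, so that the difference between strains itself was not shown. On d12, 9 were lower in AKR/J than in C57BL/6J, with 14.1% of all genes called lower, led by Skor2 of Purkinje cells at -4.85 ± 1.15 (0.019), where the AKR/J libraries held the high erythroid sums and forebrain sums of 116 to 508 CPM against 378 to 1280 CPM. Later, 10 of 24 fell in AKR/J, 12 of 24 in C57BL/6J and 7 of 23 in Cav1-null, while 2, 1 and 1 rose, and on d15, 16 of 23 were lower and 2 higher in Cav1-null than in C57BL/6J, against 31.8% and 26.8% of all genes.

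The roof plate list holds signals and factors of that structure. In the early phase 6 of 14 genes fell in AKR/J, 8 in Cav1-null and 4 in C57BL/6J, and none rose, with medians of -1.15, -1.41 and -0.94 on the log2 scale. Msx2, a target of Bmp signals, led at -3.05 ± 0.64 (0.0106) in AKR/J and -4.24 ± 1.18 (0.0323) in Cav1-null. On d15, 11 of 14 were lower in Cav1-null and 3 in AKR/J than in C57BL/6J, the latter near the 22.3% of all genes and the former against 31.8%, led by the Bmp family genes Gdf10 at -2.83 ± 0.30 (1.79e-05) and Bmp6 (0.00253). The late phase saw 4 of 14 fall in AKR/J, led by Wnt1 at -3.19 ± 0.48 (0.0033), 4 of 14 in C57BL/6J, and 1 of 11 in Cav1-null, where 1 rose.

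Of 11 genes of the midbrain-hindbrain boundary, 2 fell and 1 rose in AKR/J from d12 to d15, near the 14.0% and 14.8% of all genes, and 4 fell in C57BL/6J, against 7.80%, and 4 in Cav1-null, against 11.8%. Fgf8, the signal of this organizer, led in AKR/J at -2.38 ± 0.76 (0.0479) and in C57BL/6J at -2.41 ± 0.34 (0.0176). The median log2 fold change of this list from d12 to d15 was -0.26 in AKR/J, -0.83 in Cav1-null and -0.59 in C57BL/6J. The list's sums spread widely on d12, over 200 to 779, 203 to 334 and 177 to 696 CPM in the same order. On d15 they were 222 to 359, 164 to 170 and 247 to 281 CPM, which the d12 sums overlapped in AKR/J and spanned in C57BL/6J. From d15 to d17, 4 fell in AKR/J, 3 in Cav1-null and 5 in C57BL/6J. On d15, 7 were lower and 1 higher in Cav1-null, with 31.8% and 26.8% of all genes, led by Pax5 at -1.97 ± 0.11 (2.27e-07). Of 6 Zic and Mab21l relatives tested, 1 fell early in AKR/J and 1 early in C57BL/6J, and 5 were lower in Cav1-null than in C57BL/6J on d15, again with 31.8% of all genes called lower. Between strains in the change between days, 2 genes of the 5 lists were called, Pou4f1 at 1.62 ± 0.22 (0.0174) and Tfap2b at 0.80 ± 0.15 (0.0494), both less negative in the late phase of Cav1-null.

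The courses of the genes over the 27 libraries were compared by Pearson's r of log2(CPM + 1), which is given as a description, since libraries of 1 group share strain and day. Zic1 and Zic2 went together most closely, at 0.944, followed by Zic5 and Lmx1a at 0.921, Barhl2 and Zic1 at 0.854, and Barhl2 and Zic5 at 0.849. The neighbours Zic2 and Zic5 reached 0.688 and Zic1 and Zic4 0.637. Atoh1 and Ptf1a were at 0.394, and Atoh1 and Barhl2 at -0.071.

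Among all genes with a mean of at least 1 CPM, those most like each gene were read out over the same 27 libraries. Zic1 was most like the ephrin receptor gene Ephb2 (0.976) and Ssbp3 (0.968), and Zic2 most like Ephb2 (0.972) and Ptprf (0.966). Barhl2 was most like Nuak2 (0.976) and the homeobox gene Otx1 (0.974), Zic5 like Dach1 (0.951) and Hsd11b2 (0.938), and Lmx1a like Elf1 (0.946) and the Wnt secretion gene Wls (0.943). Barhl1 was most like Draxin (0.900), a secreted axon guidance protein, Mab21l1 like Irx2 (0.881) and Irx3 (0.849), and Zic4 like Ranbp10 (0.854) and Ddx39b (0.847). Atoh1 was most like the hindbrain homeobox gene Tlx3 (0.831), and Ptf1a like 2610027F03Rik (0.634) and Kirrel2 (0.617). The last values depend on the pseudocount, since with 0.1 in place of 1 Cnpy1 came first for Ptf1a (0.603).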

How the data were processed

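RNA of whole fetal brains was sequenced in 27 libraries, 3 for each strain and day of the labels. The authors used FastQC on the reads, cut adaptors off with cutadapt, trimmed by quality with fastp and mapped to GRCm39 with STAR. The deposited gene table holds whole read counts without normalization. The counting tool, its strand setting and the tool versions are not given in the sources used here. The deposited junction table holds counts of reads across each intron from 2-pass mapping by the authors, who left out junctions with multi-mapped reads, short overhangs or few reads, so that a 0 can be a removed junction.

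Each comparison was fitted on all genes of its 6 libraries (12 for interactions) in R 4.3.3 with edgeR 4.0.16, with filterByExpr, TMM scaling and the quasi-likelihood test. Calls needed an adjusted p (Benjamini-Hochberg) under 0.05, and errors of log2 fold changes are their size divided by the root of F. The fit was tested on simulated data. Annotation came from GENCODE M39 and sequences from RefSeq, both on GRCm39. Python 3.11.15 with numpy 2.4.6, pandas 2.3.3 and matplotlib 3.10.9 served for annotation and plots. Depth was 26363697 to 39759702 reads, and intervals and floors cover counting error only.

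Named were the 10 genes, the 2 genes most like each, and in each list and comparison the called gene with the largest change. Some genes that this rule names are not reported here. A few others (Cav1, En2, and En1, Pax5 and Cnpy1 beside En2) were chosen after their values were seen. The 10 genes and all lists were chosen with earlier results of these data known. Further marker lists were choroid plexus (258 to 792 CPM), eye (at most 186 CPM), inner ear (27.5 to 174 CPM), muscle (at most 104 CPM) and maturing neurons (1350 to 6600 CPM).

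Other settings tried were DESeq2 1.42.0 (Wald test), edgeR's likelihood ratio test, scaling by RLE, by the upper quartile or by library sizes alone, no low-count filter, a minimum of 10 reads in each library, a single model of the 27 libraries, a replicate block, leaving out genes of blood, placenta and yolk sac, each library left out in turn and, chosen after seeing the data, both low-forebrain d12 libraries left out. Methylation and SNPs were not analysed here.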

Additional observations from a re-analysis of the deposited data

How the results depend on the processing

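Of the fold changes of the members under the alternatives, 381 stayed called in the same direction, 51 lost their call, 70 gained one, and 2 turned direction and were called in the alternative fit alone. A further 1894 were uncalled in both fits with the same direction and 148 with the opposite one, so that no direction is to be read from these. The number of the 10 genes called in AKR/J in the early phase went from 3 to 1 with library sizes alone and to 1 with a replicate block, and in C57BL/6J from 2 to 0 with the block, or 3 with DESeq2 or the likelihood ratio test. The late count of C57BL/6J went from 4 to 5 with DESeq2, 6 in 1 model of all 27 libraries and 3 with the block. In the late phase of AKR/J it went from 2 to 4 with DESeq2, the likelihood ratio test, library sizes alone or no filter on low counts, and to 1 in the model of all 27 libraries, and for Cav1-null in the late phase from 1 to 0 in that model. For AKR/J against C57BL/6J on d12 it went from 0 to 1 with DESeq2 and library sizes alone, 2 with the likelihood ratio test, 3 with no filter and with the replicate block, and 4 in the 27-library model. For Cav1-null against C57BL/6J on d12 it went from 0 to 1 with DESeq2, the likelihood ratio test, no filter or both low-forebrain d12 libraries left out, and to 2 in the 27-library model. The early change of Cav1-null minus C57BL/6J went from 0 to 1 with DESeq2 or the likelihood ratio test, and the late change from 0 to 1 with DESeq2. Where a call was involved, direction turned for Zic4 in Cav1-null against C57BL/6J on d15 with upper quartile scaling (0.16) and for Atoh1 in the early phase of Cav1-null without the d12 replicate 3 (3.97; -0.73 at the lowest with 1 library left out). The cause was not tested in any of these. Of all genes, DESeq2 called 25.5% early and 23% late in C57BL/6J and 26.7% late in AKR/J. On d12 it called 35.2% for AKR/J and 10.5% for Cav1-null, and 2.44% and 6.7% in the Cav1-null interactions. The shares of all genes in the other settings are not given here, so that those counts are not read as particular to the 10 genes.

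With 1 library left out, the number called was 1 to 2 and 1 to 4 in the early and late phase of AKR/J, 0 to 4 and 0 to 6 in C57BL/6J, and 5 to 6 and 1 to 1 in Cav1-null. Against C57BL/6J on d12, d15 and d17 it was 0 to 2, 1 to 6 and 0 to 3 for AKR/J and 0 to 1, 7 to 7 and 0 to 2 for Cav1-null. For the interactions it was 0 to 1 and 0 to 0 for AKR/J and 0 to 3 and 0 to 5 for Cav1-null. The share of all genes called moved too, in the same order from 12.4% to 43.5% and 7.58% to 23.3% (AKR/J), 0% to 29.8% and 0.767% to 33.2% (C57BL/6J), and 11.2% to 35.9% and 18.9% to 25.5% (Cav1-null), then 0.122% to 39.9%, 28.2% to 37.9% and 0.258% to 26.4% for AKR/J and 0% to 7.37%, 49.8% to 53.7% and 0.00946% to 13.6% for Cav1-null, and for the interactions 0.0135% to 14.8% and 0.00449% to 3.7%, and 0.00451% to 7.3% and 0% to 26.1%.

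Replicate numbers did not pair the samples: over 12 comparisons, same-number correlations ran from -0.503 to 0.432, and in 0 were all 3 over 0.1. With the block, the calls of Barhl2 and Zic5 were lost from d12 to d15 in AKR/J (adjusted p of 0.0603 and 0.0737) and C57BL/6J (0.0672 and 0.113), as were the late ones of Lmx1a in AKR/J (0.0658) and Zic1 in C57BL/6J (0.0673). It added the late fall of Zic2 in AKR/J (0.0325) and, for AKR/J against C57BL/6J on d12, Barhl1 (0.0381), Zic2 (0.0364) and Lmx1a (0.0364), and changed no other call of the 10 genes. With library sizes alone the median over all genes moved on the log2 scale from 0.02 to 0.46 for the early change of AKR/J, from 0.02 to -0.38 for AKR/J against C57BL/6J on d12, from 0.06 to 0.23 and from 0.03 to 0.21 on d15 for AKR/J and Cav1-null, and from 0.03 to 0.17 in the late phase of C57BL/6J. Low counts limit Ptf1a, with at most 14 reads per library. Atoh1 had 0 to 126 reads among the d12 libraries, which held 28025320 to 35743241 reads, and the part of depth was not tested.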
